A study of Mus musculus with 6 samples.

Results

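The 39 Hox genes of the mouse were described in RNA from cells sorted to obtain sensory neurons of the embryo. They were taken as every gene whose symbol is Hoxa, Hoxb, Hoxc or Hoxd followed by a number, which gave 39 of the 41388 genes listed. Cluster A (Hoxa) held 11 genes, cluster B (Hoxb) 10, and clusters C (Hoxc) and D (Hoxd) 9 each. The libraries were made from EGFP-positive cells, sorted by fluorescence out of dorsal root ganglia of C57BL/6 embryos at 18.5 days post coitum, 3 libraries from females and 3 from males. All 6 carried the genotype RetFloxedEGFP / Scn10a<tm2(cre)Jnw>, in which Cre recombinase made from the Scn10a (Nav1.8) locus switches on EGFP in cells of the Ret population, although the label of male C gives a shortened form of it. No library of sorted cells without Cre, or of ganglia from other levels, was part of the comparison. Per the labels' protocols, the ganglia lay between spinal levels T11 and S1, lower thoracic to first sacral, and each library pooled them: 40 ganglia from 2 embryos in male A and in all 3 female libraries, 60 from 3 embryos in male B, and 20 from 1 embryo in male C. Every level below is therefore an average over the sorted cells of several body segments, including any glia or other cells carried along. In such bulk RNA fewer cells that express a gene and less RNA per cell cannot be told apart.

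Hox genes encode homeodomain transcription factors that give cells along the head to tail axis their regional identity. Mammals carry them in 4 clusters, and genes at matching places in different clusters form a paralogue group, numbered from 1 at the anterior end to 13 at the posterior end. Low-numbered groups are first active early and reach far forward, into the hindbrain, while high-numbered groups are active later and nearer the tail. Around the lower trunk, groups 8 and 9 are known for thoracic, group 10 for lumbar and group 11 for sacral patterning. In spinal motor neurons the same genes set columns and pools.

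Each library held between 15693013 and 24033601 counted reads. All 7 genes listed as markers of the sorted nociceptors had a mean of at least 1 RPKM (reads scaled to gene length in kilobases and to library size, the latter adjusted by TMM factors). Among them were Scn10a at 119 ± 16.8 and Ret at 27.8 ± 3.82 RPKM (SD over 6 libraries). The 7 summed to 2627 to 4124 RPKM per library, and Tubb3 (2150 ± 504 RPKM) made up most of that sum in each. The lists hold different genes, so their sums do not give the share of each cell type. Of 9 glial markers, 8 reached 1 RPKM, with a summed level of 579 to 657 RPKM, and of 9 fibroblast markers 5 did, with a sum of 150 to 176 RPKM. Of 6 markers of other sensory neurons, 5 reached 1 RPKM, with a sum of 60.5 to 81.5 RPKM. The counts at 1 RPKM were 2 of 9 for endothelium and mural cells (sum 14.4 to 20.6 RPKM), 1 of 5 for skeletal muscle (4.79 to 7.17) and 1 of 4 for sympathetic neurons (9.99 to 19.0). They were 0 of 6 for immune cells (0.610 to 1.44) and 0 of 4 for cartilage (0.322 to 1.16). Of 6 spinal cord markers, 0 reached 1 RPKM, their sum was at most 0.0163 RPKM, and Olig1, Olig2, Nkx2-2 and Mnx1 had no reads. All 5 blood markers reached 1 RPKM and summed to 1256 RPKM in male A and to between 41.3 and 223 RPKM in the other libraries. All averages of Hox genes below are also means ± SD over the 6 libraries, and levels of different genes are compared per length.

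Most of the summed Hox RNA level in these libraries came from a few genes of groups 7, 8 and 10. Hoxd10 was the highest at 21.5 ± 4.19 RPKM, followed by Hoxb7, Hoxd8, Hoxa10, Hoxa7 and Hoxc10 between 8.52 and 10.6 RPKM. Those 6 genes were the 6 highest in each library, and together held 72.6 ± 3.08% of the summed Hox level of 94.4 ± 7.91 RPKM. In all, 15 of the 39 (38.5%) had a mean of at least 1 RPKM, against 28.0% of all listed genes. A further 16 lay between 0.1 and 1 RPKM, and 8 lay below 0.1 RPKM, of which Hoxa11, Hoxa13 and Hoxd13 had no reads in any library. The median Hox gene stood at 0.409 RPKM, and the median of all listed genes at 0.0486 RPKM. Among the 26 Hox genes with enough reads for testing, the median was 1.36 RPKM against 3.93 RPKM over all 15026 tested genes.

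**Figure D1:**
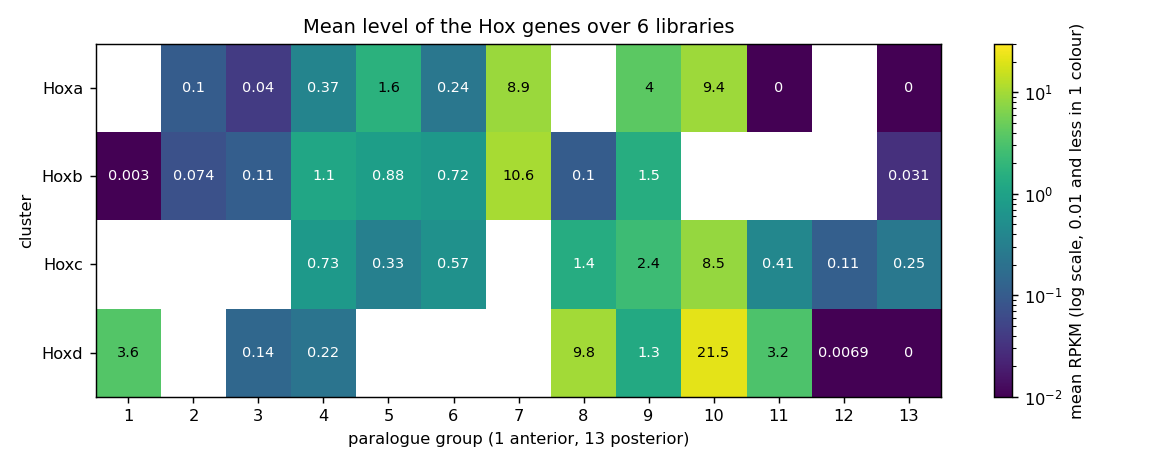
Mean RPKM over 6 libraries of the Hox genes, with clusters as rows and paralogue groups as columns; colour follows the level on a log scale and white squares are places with no gene in the mouse or not shown. The brightest squares are those of Hoxd10 (21.5 RPKM), Hoxb7 (10.6), Hoxd8 (9.78), Hoxa10 (9.35), Hoxa7 (8.91) and Hoxc10 (8.52).

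By cluster, Hoxd genes held 42.0 ± 3.64% of the summed Hox RPKM, Hoxa genes 26.3 ± 2.36%, Hoxb genes 16.1 ± 1.25% and Hoxc genes 15.6 ± 0.814%. Hoxd was the largest in every library (37.2 to 46.7%), and the ranges of Hoxb (14.6 to 17.7%) and Hoxc (14.2 to 16.5%) overlapped. The order of the first pair depended on gene length: counted as CPM, without division by length, Hoxa genes held 37.7% and Hoxd genes 37.3%. The listed exons of Hoxa9 and Hoxa7 add up to 5580 and 3761 bases, those of Hoxd10 to 1816 bases. By position, groups 9 to 13 held 55.6 ± 2.32%, groups 4 to 8 held 40.0 ± 2.15% and groups 1 to 3 held 4.45 ± 0.89%. Group 10 alone, with 3 genes, held 41.6 ± 2.74%, and group 7, with 2 genes, held 20.6 ± 1.87%. Group 8 followed with 12.0 ± 1.88% and group 9 with 9.78 ± 1.43%.

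**Figure D2:**
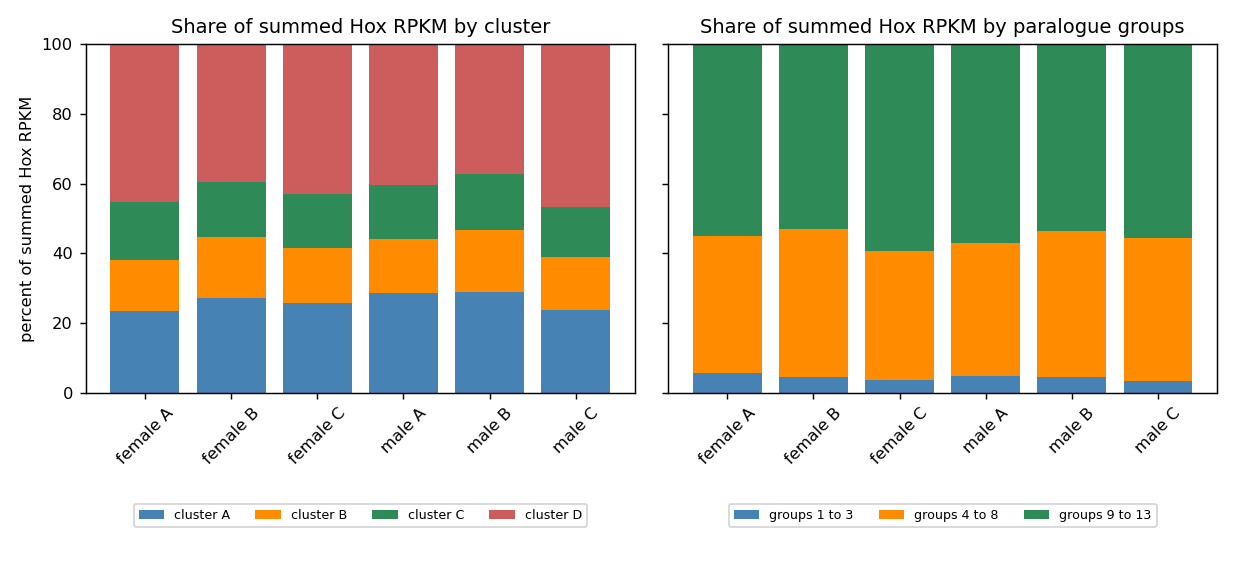
Share of the summed Hox RPKM held by each cluster (left) and by paralogue groups 1 to 3, 4 to 8 and 9 to 13 (right), in percent, with 1 bar for each library. Cluster D is the largest part of every bar on the left (37.2 to 46.7%), and groups 9 to 13 hold between 53.0 and 59.2% on the right.

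Group 10 genes, known for patterning the lumbar region and its motor neurons, had all their members near the top. With libraries in the order A, B, C, here and below, Hoxd10 had 18.8, 17.8 and 26.5 RPKM in the females and 21.1, 18.0 and 26.9 RPKM in the males. It ranked first in 6 of 6 libraries, at 10.9 ± 3.72 RPKM above the next gene in the order, and its female and male values overlapped. Hoxa10 had 6.97, 8.55 and 9.43 RPKM in the females and 12.6, 9.27 and 9.28 RPKM in the males, with male A the highest and female A the lowest. Hoxc10 had 7.59, 8.89 and 8.70 RPKM in the females and 9.33, 7.91 and 8.70 RPKM in the males. Its spread was small: with a biological coefficient of variation of 0.197 it was the steadiest of the 26 tested Hox genes.

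Group 9, whose Hoxc9 is known for setting thoracic motor neuron identity, was expressed from all 4 clusters and at lower levels. Hoxa9 had 3.42, 4.14 and 4.54 RPKM in the females and 3.69, 5.06 and 3.37 RPKM in the males. Hoxc9 had 1.97, 2.07 and 2.74 RPKM in the females and 2.10, 2.71 and 2.74 RPKM in the males. Hoxb9 had 1.59, 2.14 and 1.35 RPKM in the females and 1.76, 1.31 and 0.758 RPKM in the males, so that its lowest value was that of male C. In all 3 of these genes the female and male values overlapped. Hoxd9 had 0.825, 0.881 and 1.98 RPKM in the females and 1.20, 1.99 and 0.913 RPKM in the males. Female C and male B thus stood above the other 4 libraries, and their 95% counting intervals (1.62 to 2.41 and 1.62 to 2.42 RPKM) did not overlap those of the others, of which the highest upper bound was 1.55 RPKM in male A. These intervals cover counting error only.

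Group 11, known for sacral and kidney patterning, was represented mainly by Hoxd11. It had 3.32, 2.87 and 3.75 RPKM in the females and 2.97, 2.31 and 3.78 RPKM in the males, with overlapping groups. Hoxc11 had 0.218, 0.162 and 0.809 RPKM in the females and 0.497, 0.537 and 0.233 RPKM in the males. Hoxa11 had no reads in any library, where 3 counts, the limit that a count of 0 allows, would correspond to 0.0536 to 0.0882 RPKM. Beyond group 11 little was left. Hoxc12 and Hoxc13 averaged 0.112 and 0.246 RPKM, Hoxb13 0.0305 RPKM and Hoxd12 0.0069 RPKM, with 2 reads over all libraries. Hoxa13 and Hoxd13, regulators of limb tips and of the hind end of the body, had none.

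Groups 7 and 8, central genes of the trunk, supplied the other 3 of the 6 leading genes. Hoxb7 had 7.75, 10.8 and 11.4 RPKM in the females and 10.7, 11.4 and 11.8 RPKM in the males. Hoxa7 had 6.36, 9.24 and 10.1 RPKM in the females and 8.66, 9.42 and 9.69 RPKM in the males. Both were lowest in female A and close together in the other 5 libraries. Hoxd8 had 9.38, 10.1 and 8.33 RPKM in the females and 9.45, 8.59 and 12.8 RPKM in the males, with male C the highest. The other members of group 8 were lower. Hoxc8, known in motor neurons of the lower cervical cord, averaged 1.42 ± 0.274 RPKM, between 1.16 RPKM in male A and 1.91 RPKM in female A. Hoxb8 stood at 0.102 ± 0.0419 RPKM, on 2 to 11 reads per library.

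Of groups 4 to 6, known for cervical and upper trunk identity, only Hoxa5 and Hoxb4 reached a mean of 1 RPKM. Hoxa5 had 1.48, 1.70 and 1.14 RPKM in the females and 2.38, 2.18 and 0.967 RPKM in the males, with male A and B above all females and male C below them. Hoxb4 had 1.23, 0.988 and 1.18 RPKM in the females and 0.712, 1.24 and 1.49 RPKM in the males. Hoxb6, the highest of group 6, had 0.513, 0.729 and 0.812 RPKM in the females and 0.767, 0.934 and 0.548 RPKM in the males. The other members of these groups lay between 0.220 RPKM (Hoxd4) and 0.883 RPKM (Hoxb5).

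Hoxd1 was the exception among the anterior groups, which otherwise serve the hindbrain and neck. It is known from mouse work as a gene of nociceptors, which it helps to connect. Hoxd1 had 4.09, 3.43 and 3.04 RPKM in the females and 4.39, 3.52 and 2.96 RPKM in the males, eighth in the order of the 39 genes and with overlapping sexes. The other 7 genes of groups 1 to 3 had means between 0.00301 RPKM (Hoxb1, with 1 read) and 0.143 RPKM (Hoxd3). Hoxa2, the highest of group 2, had 0.112, 0.122 and 0.0749 RPKM in the females and 0.136, 0.174 and 0 RPKM in the males, on 0 to 7 reads. The share of groups 1 to 3 in the Hox total was therefore almost that of group 1 (3.95 ± 0.794%).

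**Figure D3:**
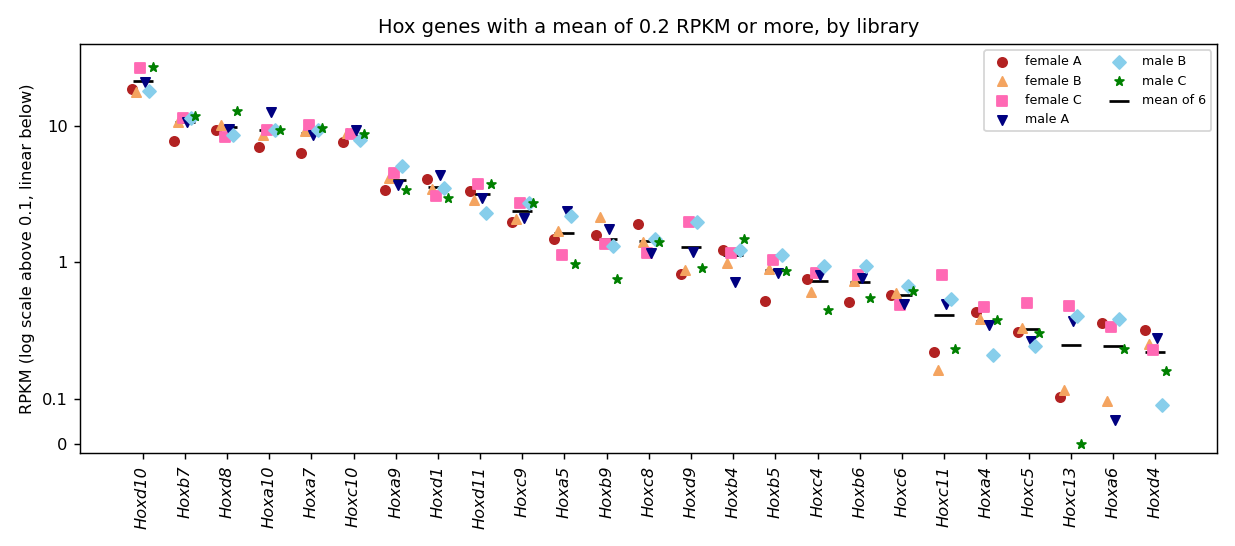
RPKM of the 25 Hox genes with a mean of 0.2 RPKM or more, in order of their mean (black dash), with 1 symbol for each of the 6 libraries; the axis is logarithmic above 0.1 RPKM and linear below. Hoxd10 is first in all 6 libraries, the next 5 genes overlap, and Hoxc11, Hoxc13 and Hoxa6 spread most widely.

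Of the 38 pairs of neighbours in that order, 3 differed by more than 1 SD of their difference over libraries. Hoxd10 exceeded Hoxb7, and Hoxc10 exceeded Hoxa9, in 6 of 6 libraries, the latter by 4.48 ± 0.999 RPKM. Hoxd11 exceeded Hoxc9 in 5 of 6 libraries, by 0.778 ± 0.61 RPKM. The 4 steps from Hoxb7 down to Hoxc10 were each smaller than their SD, with the higher gene ahead in 2 to 4 libraries. So were the steps from Hoxa9 to Hoxd1 and on to Hoxd11.

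Along the chromosome the level changed sharply from gene to gene. Cluster D lies on chromosome 2 (GRCm38, 74668310 to 74765142, plus strand), with Hoxd13 first and Hoxd1 last. Within it Hoxd9 lay between Hoxd10 and Hoxd8, and both exceeded it in 6 of 6 libraries, by 16.6-fold (9.05 to 29.5 over libraries) and 7.53-fold (4.2 to 14.0). Hoxd10 exceeded Hoxd11 by 6.79-fold (5.67 to 7.81), and Hoxd8 exceeded Hoxd4 by 44.4-fold (29.3 to 101). The size of that last fold is uncertain, because Hoxd4 shares 52.3% of its exon bases with other listed genes. Beyond Hoxd4 and Hoxd3, at 0.220 and 0.143 RPKM, the level was again 3.57 ± 0.569 RPKM at Hoxd1, the end of the cluster.

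In cluster B (chromosome 11, 96194316 to 96368256, plus strand) Hoxb7 exceeded Hoxb6 by 14.8-fold (12.2 to 21.5), and stood at 10.6 ± 1.47 RPKM beside Hoxb8 at 0.102 RPKM. Hoxb9, on the far side of Hoxb8, was back at 1.49 ± 0.468 RPKM. In cluster C (chromosome 15, 102921103 to 103036852, plus strand) the level rose stepwise from Hoxc6 at 0.573 ± 0.0726 RPKM through Hoxc8 and Hoxc9 to Hoxc10. It then dropped at Hoxc11, with Hoxc10 20.8-fold higher (10.7 to 54.9). In cluster A (chromosome 6, 52155590 to 52260880, minus strand) Hoxa7, Hoxa9 and Hoxa10 formed a block, bounded by Hoxa6 at 0.242 ± 0.142 RPKM on one side and Hoxa11 with no reads on the other. Hoxa10 exceeded Hoxa9 by 2.32-fold (1.83 to 3.42) and Hoxa7 exceeded it by 2.21-fold (1.86 to 2.87), each in 6 of 6 libraries.

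The promoters of 4 Hoxd genes are shown because these genes lie in 1 cluster and differ so much in level. Each is the stretch of 250 bases before the RefSeq start of the gene (RefSeq, build GRCm38.p6, plus strand), and that of Hoxd9 was ended at 214 bases, where the deposited gene begins. Capitals mark a match to AGGTCA or its reverse complement TGACCT, the binding core of nuclear receptors, among which are the retinoic acid receptors.
Hoxd10 (chr2:74691641-74691890): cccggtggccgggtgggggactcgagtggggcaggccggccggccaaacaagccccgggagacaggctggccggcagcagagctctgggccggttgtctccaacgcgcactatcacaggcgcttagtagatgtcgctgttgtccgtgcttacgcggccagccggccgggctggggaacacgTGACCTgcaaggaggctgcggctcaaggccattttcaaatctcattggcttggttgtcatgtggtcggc
Hoxd9 (chr2:74697513-74697726): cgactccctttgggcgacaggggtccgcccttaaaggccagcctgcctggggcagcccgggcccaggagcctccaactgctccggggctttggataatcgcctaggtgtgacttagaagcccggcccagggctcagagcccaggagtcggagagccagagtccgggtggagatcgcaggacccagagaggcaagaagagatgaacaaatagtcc
Hoxd8 (chr2:74704365-74704614): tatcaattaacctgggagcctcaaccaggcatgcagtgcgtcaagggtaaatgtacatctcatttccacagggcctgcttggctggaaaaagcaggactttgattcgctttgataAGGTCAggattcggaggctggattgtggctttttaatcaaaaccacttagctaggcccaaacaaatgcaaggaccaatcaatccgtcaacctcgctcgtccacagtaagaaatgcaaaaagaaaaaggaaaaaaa
Hoxd1 (chr2:74762730-74762979): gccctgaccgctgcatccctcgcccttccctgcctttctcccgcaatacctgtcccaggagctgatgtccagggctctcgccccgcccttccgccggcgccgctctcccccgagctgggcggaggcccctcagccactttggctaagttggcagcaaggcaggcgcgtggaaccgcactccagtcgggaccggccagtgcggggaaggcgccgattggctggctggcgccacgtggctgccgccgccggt
Hoxd10 and Hoxd8, the highest 2 Hoxd genes, had promoters of unlike composition: 65.6% G or C with 20 CpG, and 44.4% with 6 CpG. The stretch of Hoxd9 held 63.6% G or C and 10 CpG, and that of Hoxd1 71.6% and 24 CpG. The medians over all 32851 RefSeq promoters of 250 bases were 52.4% and 6 CpG, and over the 24 promoters found for 22 of the 39 Hox genes 58.6% and 12.5 CpG. AGGTCA, searched on both strands, was found in 6 of those 24 (25.0%), against 14.0% of all promoters. It was present at genes of high level (Hoxd10, Hoxd8) and of low level (Hoxd3, Hoxd4). The other letters searched on both strands were TATAAA (16.7% of Hox promoters, 12.4% of all), TGATTNAT, the shared site of Pbx and Hox proteins (8.33%, 2.82%), TAATTA, the homeodomain core (8.33%, 4.84%), and TTTATGG, bound by posterior Hox and Cdx proteins (4.17%, 2.43%). With 24 promoters these shares rest on 1 to 6 matches each, and a match describes the letters alone.

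The clusters also hold microRNA genes whose mature products are known to act on Hox messages, miR-10a in cluster B, miR-10b in cluster D and miR-196 in clusters A, B and C. They are shown for the seed (bases 2 to 8, in capitals), which the miR-10 pair and the miR-196 pair each share.
miR-10a-5p: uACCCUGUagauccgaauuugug
miR-10b-5p: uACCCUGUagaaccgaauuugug
miR-196a-5p: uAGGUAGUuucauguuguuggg
miR-196b-5p: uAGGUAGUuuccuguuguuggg
The best known of their sites lies in the 3′ untranslated region of Hoxb8, at bases 418 to 439 of 845, and is printed in full, with capitals at the 21 of 22 bases complementary to miR-196a-5p. Of 2798 untranslated regions of similar length, counting that of Hoxb8, it was the 1 (0.0357%) with a place so complementary.
Hoxb8 site: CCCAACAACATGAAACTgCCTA
In no other Hox gene were more than 15 bases complementary at 1 place. Matches to the miR-196 seed (ACTACCT in the message) lay in the untranslated regions of 9 of the 39 genes, among them Hoxb7, at 10.6 RPKM, and Hoxa7, at 8.91 RPKM and with 4 matches. Of regions of similar length, 2.32 to 6.77% held that seed match. Matches to the miR-10 seed (ACAGGGT) were found in 4 of the 39 genes, among them Hoxa3, Hoxb3 and Hoxd1. Of regions of similar length, 7.51 to 14.5% held that match, and the share of Hox genes lay within this range. Genes with such matches stood at both ends of the order of levels. The microRNA loci had no reads, and mature microRNAs were not measured by this assay, so that their part in these levels was not tested.

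Females and males were compared because sex is the contrast in the labels. None of the 26 tested Hox genes passed the test for a difference. By edgeR's quasi-likelihood test with Benjamini-Hochberg adjustment at 0.05, 0 of 26 were called, where 0.0333% of all 15026 tested genes were. At an unadjusted p below 0.05 the count was also 0, against a background of 1.10%. DESeq2 called 0 of the 36 Hox genes it fitted (0.0271% of all genes) and limma-voom 0 of 26 (0.0399%). The 13 genes not tested, which include Hoxb8 and Hoxa11, had too few reads for the filter.

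The fitted changes were small for the leading genes. Female over male, 7 of the 26 were higher and 19 lower, with a median log2 fold change of -0.08 against -0.005 over all tested genes, and 17 of 26 lay within 0.2 of 0. Hoxd10 had a log2 fold change of -0.06 (SE 0.22), and Hoxc10 of -0.04 (SE 0.20). The smallest unadjusted p by edgeR belonged to Hoxd3, whose exons largely overlap other genes, with 0.198 ± 0.0596 RPKM in females and 0.0876 ± 0.0541 RPKM in males, a log2 fold change of 1.10 (SE 0.55) and an adjusted p of 0.9997. Per library Hoxd3 had 0.240, 0.224 and 0.130 RPKM in the females and 0.0654, 0.149 and 0.0481 RPKM in the males, so that the groups overlapped. Hoxa10 followed with a log2 fold change of -0.32 (SE 0.21), then Hoxc5 with 0.50 (SE 0.41), both at an edgeR adjusted p of 0.9997. Hoxc5 had 0.306, 0.331 and 0.502 RPKM in the females and 0.266, 0.243 and 0.305 RPKM in the males. It was 1 of 2 Hox genes, with Hoxa4, whose female and male values did not overlap, where 5.70% of all tested genes did not. With 3 libraries a sex, a p that misses the threshold does not show that levels were equal.

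**Figure D4:**
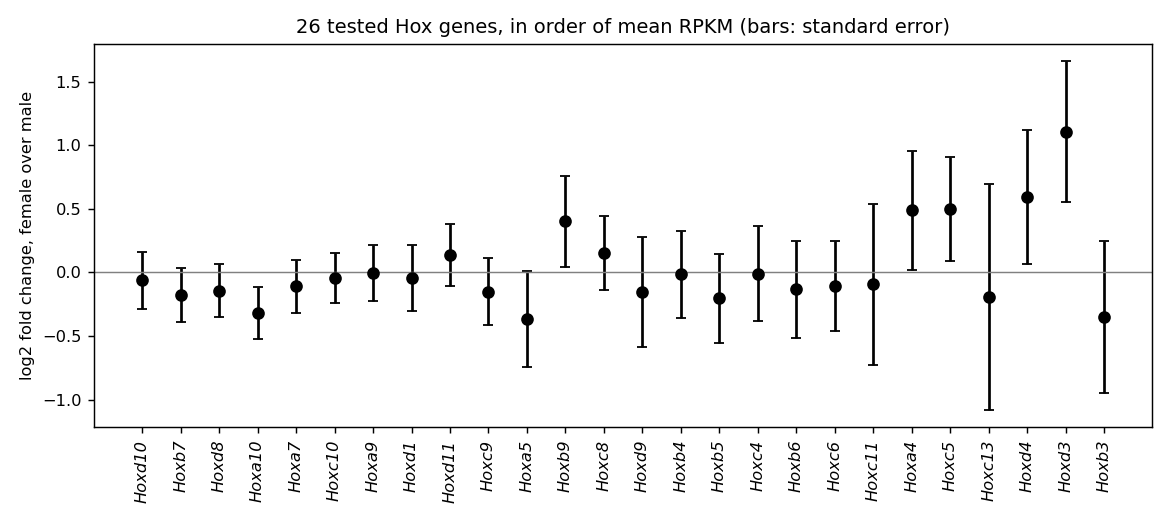
Log2 fold change, female over male, of the 26 tested Hox genes in order of mean RPKM, from edgeR, with bars of 1 standard error. The 11 genes of highest level lie between -0.37 (Hoxa5) and 0.14 (Hoxd11), and the errors widen toward the genes of low level on the right, up to 0.89 for Hoxc13.

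Some members varied between libraries of the same sex. The 39-gene profiles of any 2 libraries had Spearman correlations of 0.933 to 0.984, computed across genes, which are not independent replicates. Male C, from 1 embryo and with the fewest counted reads, was the highest library for 6 and the lowest for 7 of the 26 tested Hox genes. Over all tested genes it was the highest for 22.7% and the lowest for 22.9%, more than any other library. Tested Hox genes had a median biological coefficient of variation of 0.294, against 0.238 over all tested genes, which are on the whole more abundant. The highest were Hoxc13 (0.706), Hoxc11 (0.499) and Hoxb3 (0.389). Hoxc13 had 0.102, 0.116 and 0.477 RPKM in the females and 0.371, 0.407 and 0 RPKM in the males, on 0 to 28 reads. Female C, male A and male B were therefore high, as they were for Hoxc11, and both sexes held high and low libraries. Hoxc12, next to both, had 0.0611, 0 and 0.325 RPKM in the females and 0.0443, 0.243 and 0 RPKM in the males, on 0 to 8 reads. Hoxb3 had 0.104, 0.0770 and 0.109 RPKM in the females and 0.0430, 0.157 and 0.174 RPKM in the males.

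Female C and male B were picked because Hoxd9 was high in them, and were then followed through other genes. They were the 2 highest libraries for 7 of the 26 tested Hox genes (26.9%: Hoxd9, Hoxa9, Hoxb6, Hoxb5, Hoxc13, Hoxc11 and Hoxc4), and for 20.0% of all tested genes. The 7 include Hoxd9 itself, and their share lay near that of all genes. Female C and male B were the 2 lowest for 1 of 26 (Hoxd8), and for 18.4% of all tested genes. Over all tested genes their deviations from the means of their own sex were correlated at 0.549, the highest of any female and male pair. That these 2 libraries stood together was therefore not particular to the genes named here. Among markers, they were the 2 highest for 4 of 9 tested glial genes (among them Sox10, Erbb3 and Apoe). They were also the 2 highest for 4 of 7 tested fibroblast markers (Col1a1, Col1a2, Col3a1 and Fbln1), but for 0 of 8 endothelial and mural and 0 of 5 blood markers. Apoe, a lipid carrier made by satellite glia, had 263 RPKM in female C and 268 RPKM in male B, and 108 to 155 RPKM in the others. Fabp7, the most abundant glial marker, went the other way, with 252 and 241 RPKM in these 2 libraries and 306 to 371 RPKM in the others. The summed glial markers were 657 and 653 RPKM there and 579 to 637 RPKM in the others, but without Apoe they were 393 and 385 RPKM, the lowest, against 459 to 525 RPKM. Summed fibroblast markers did not separate them (163 and 171 RPKM, others 150 to 176 RPKM). Dcn, which made up most of that sum, was lowest in both, and the nociceptor marker Prph was highest in both. Mtx2, a mitochondrial import gene beside cluster D, was singled out after its values were seen: it had 25.1 RPKM in female C, 24.2 RPKM in male B and 8.34 to 11.3 RPKM elsewhere. The part of these cells or of library make-up in the Hox levels was not tested.

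**Figure D5:**
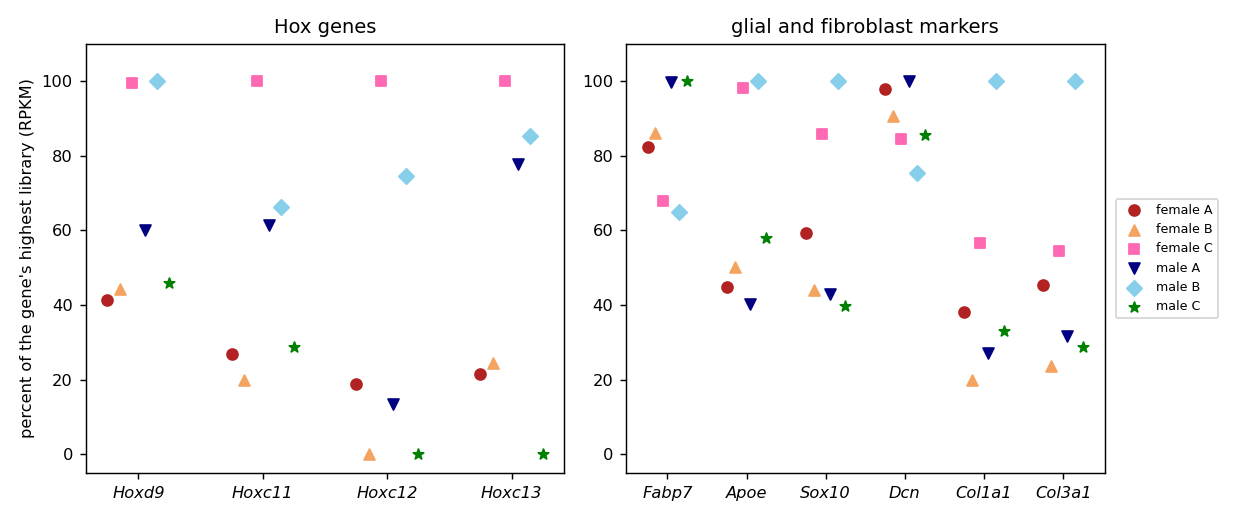
Level in each library as a percentage of the gene's highest library, for 4 Hox genes that vary between libraries (left) and 6 glial and fibroblast markers (right). Female C and male B are the 2 highest for Hoxd9, Hoxc11, Hoxc12 and Hoxc13 and for Apoe, Sox10, Col1a1 and Col3a1, and the 2 lowest for Fabp7 and Dcn, with male A close behind for Hoxc11 and Hoxc13.

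Other transcripts of the clusters were sparse. Of 44 further genes listed inside the 4 clusters, 22 had no reads, as did 15585 of all 41388 listed genes. Most of these 22 are short, such as Gm27337 with 69 bases, and short genes collect fewer reads at a given level. A mean of 1 RPKM was reached by 3 of the 44, against 28.0% of all listed genes. These 3 were Hoxd3os1 (1.83 ± 0.111 RPKM) and Haglr (1.71 ± 0.489 RPKM), noncoding antisense genes of cluster D, and Gm11539 (1.27 ± 0.348 RPKM) in cluster B. Hotair, the noncoding RNA of cluster C, stood at 0.716 ± 0.193 RPKM. In all 16 Hox genes share exon bases with another listed gene, and in 3 the shared bases are more than the unshared: Hoxd3 (62.8%), Hoxb3 (52.9%) and Hoxd4 (52.3%). No source used here gives the strand and overlap settings of the counting, so the levels of these 3 genes, and of Hoxd3os1 and Haglr, which overlap Hoxd3, are uncertain.

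Hox proteins bind DNA with partners of the TALE homeodomain class, and all 9 listed partners were present at 1 RPKM or more. Pknox2 was the highest (27.8 ± 3.66 RPKM), followed by Meis1 (7.53 ± 1.24 RPKM) and Pknox1 (4.23 ± 0.549 RPKM), and Pbx3 was the lowest (1.64 ± 0.296 RPKM). The Polycomb proteins, which keep Hox genes silent outside their domains, had 16 of 22 genes at 1 RPKM or more, led by Rbbp7 (43.2 ± 4.69 RPKM), Rbbp4 (34.3 ± 3.72 RPKM) and Rnf2 (24.2 ± 2.67 RPKM), with Phf19 the lowest (0.139 ± 0.0687 RPKM). The genes listed as their opponents had 9 of 10, led by Rbbp5 (11.5 ± 1.79 RPKM), Men1 (6.89 ± 1.15 RPKM) and Kdm6b (6.87 ± 2.97 RPKM), with Kmt2b the lowest (0.762 ± 0.112 RPKM). Of the signals and factors that act upstream of Hox genes in the early axis, 7 of 21 reached 1 RPKM. Gdf11, the ligand that sets the trunk to tail transition, was the highest (26.7 ± 2.79 RPKM), before Egr2 (4.04 ± 3.18 RPKM) and the retinoid receptor Rxrg (3.99 ± 1.19 RPKM), while Cdx2, Cdx4, Cyp26c1 and Fgf8 had no reads. Of 14 genes that flank the clusters, 9 reached 1 RPKM, led by the heterochromatin protein gene Cbx5 (32.0 ± 6.06 RPKM), Lnpk (23.7 ± 1.19 RPKM) and Skap2 (15.7 ± 2.68 RPKM). Evx1 and Evx2, homeobox genes just beyond the posterior ends of clusters A and D, had no reads, like the nearest Hox genes Hoxa13 and Hoxd13. Between the sexes, edgeR called 0 of the 68 tested genes of these 5 lists and of the cluster noncoding genes, against 0.0333% of all tested genes. By edgeR 2 had an unadjusted p below 0.05 (Kdm6a and Lin28b), as did 1.10% of all tested genes. DESeq2 called 0 of the 79 it fitted (0.0271% of all genes) and limma-voom 0 of 68 (0.0399%). At an unadjusted p below 0.05 these 2 tools had 2 and 1.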

How the data were processed

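RNA of sorted EGFP-positive cells was sequenced as 6 libraries. The submitters' processing notes name Subread, featureCounts 1.4.5 and the build GRCm38.p2. Subread's role and settings, the annotation release and the strand setting were not given in the sources used here. Deposited by the authors were whole-number read counts, CPM (a gene's count relative to all counts of its library) and RPKM (CPM per kilobase of listed exons) for 41388 genes. The deposited CPM and RPKM were used to check that they follow from the counts and as the unscaled alternative. Symbols came from GENCODE M21 by identifier (97.26% matched).

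RPKM was recomputed with TMM-scaled library sizes (edgeR 4.0.16, R 4.3.3). Sex was tested over all genes with edgeR's quasi-likelihood test after filterByExpr, two-sided, with Benjamini-Hochberg adjustment at 0.05. Alternatives were DESeq2 1.42.0, limma-voom (limma 3.58.1), RLE factors, other filters and level limits, CPM for RPKM, the letter as a block, pooled embryos as a covariate, and each library left out. The edgeR step was tested on simulated data. The libraries came from different embryos, pooled in all but male C, so p-values measure the spread between these libraries.

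Counting intervals (Poisson, 95%) and the limit of 3 counts hold for counting error alone, because amplified reads carried no molecular identifiers and may repeat a molecule. Promoters and microRNAs came from RefSeq (GRCm38.p6), and 3′ untranslated regions from GENCODE M21. Some single genes are not reported here. The members and lists were chosen with earlier results of these data known. By the naming rule the text gives, in every library, the 12 Hox genes of highest mean, the highest of each cluster and paralogue group, all of groups 9 to 11, any called between sexes, the 3 of smallest p, and the 3 of highest and 1 of lowest coefficient of variation; of each list of related genes it gives the 3 highest and the lowest, and of marker lists the counts and sums.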

Additional observations from a re-analysis of the deposited data

How the results depend on the processing

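The count of Hox genes called between the sexes was 0 under all 14 alternatives run, with a lowest adjusted p of 0.7818 and at most 1 gene at an unadjusted p below 0.05. With the letter as a replicate block, the count was 0. Libraries with the same letter did not deviate together over all genes (correlations of 0.284 for A, -0.294 for B and -0.0773 for C), so the letters were taken as names only. Counted as CPM in place of RPKM, the share of cluster A was 37.7%, of B 11.7%, of C 13.3% and of D 37.3%, which puts A and D side by side; CPM does not divide by gene length. By CPM, a choice added after the data were seen for these shares, group 1 held 2.89%, group 9 14.5%, group 10 35.5% and the 6 highest genes 67.3%. With 0.5 or 2 RPKM as the limit, 19 or 10 genes passed in place of 15. The shares of groups 7 and 8 and of groups 1 to 3, 4 to 8 and 9 to 13 moved by less than 1 SD under every alternative run, and so did the mean levels (312 of 312 gene and setting pairs, CPM not among them). Most of these settings could not have given another outcome. Leaving out 1 of 6 libraries cannot shift a mean by 1 SD, and library scaling cancels in shares. Only CPM could have moved the shares that far, and only RLE or unscaled library sizes the mean levels. Depth limits the genes on few reads, such as Hoxb8 (2 to 11) and Hoxc12 (0 to 8).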
